A study of Mus musculus with 2 samples.

Results

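The 42 genes described here act in the G2 phase of the cell cycle and in mitosis. They were chosen by symbol from a fixed list, and all 42 were found among the 28692 genes of both matrices. Their levels were measured by droplet single-cell RNA sequencing in mouse blood progenitors grown for 3 days under myeloid conditions. Stem and progenitor-enriched marrow of C57BL/6 mice, 5 of them per the series' design text, was infected with a retrovirus carrying either a control shRNA with no mouse target or an shRNA against Cxxc5, a CXXC zinc finger gene. Infected cells of the LSK gate (lineage-negative, Sca-1-positive, Kit-positive) were flow-sorted for viral GFP, so both groups carry a virus, GFP and a hairpin, and both were cultured in 20% serum with 10 ng/ml of each of the cytokines GM-CSF and SCF. For each group 5 samples were pooled into 1 library, so no difference below has a replicate check, and the 95% intervals speak only to counting error. Whether the 2 pools came from the same mice is not given in the sources used here. Knockdown and any difference between pools, infections, cultures or libraries cannot be told apart.

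Cells commit to division by building up cyclin-dependent kinase activity, condensing their chromosomes, attaching them to the spindle and finally destroying cyclins and securin through the anaphase-promoting complex (APC/C). The genes for this machinery are known to be held down early in the cycle and in resting cells by the DREAM complex and switched on late by B-Myb and FoxM1. Much of that control runs through a promoter element called the cell cycle genes homology region (CHR), often with CCAAT boxes, which bind NF-Y, a short way upstream. In bone marrow, myeloid progenitors divide several times before they mature, and late neutrophil stages leave the cycle.

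The promoters are shown first because this element is what such genes are known for. RefSeq windows (GRCm38.p6, 250 bases before to 50 after the first-listed start of a gene) were matched by symbol for 37 of the 42 genes. Aurkb, Dlgap5, Tpx2, Cdca2 and Smc4 had no entry in the table used. The stretches below run 5' to 3' along each gene's strand from base -180 to the last base before both the RefSeq and the GENCODE start. Capitals mark the CHR (TTTGAA, or TTCAAA when it lies on the other strand) and the CCAAT box (CCAAT, or ATTGG on the other strand). The first 6 genes carry both motifs and include the kinase, cyclin and APC/C activator at the centre of mitosis and the proliferation markers Mki67 and Top2a. Nusap1 is the contrast, with neither motif.
Cdk1: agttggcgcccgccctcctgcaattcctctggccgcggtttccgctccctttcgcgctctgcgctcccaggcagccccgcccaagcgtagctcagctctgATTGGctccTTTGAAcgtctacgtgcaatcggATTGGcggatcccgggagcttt
Ccnb2: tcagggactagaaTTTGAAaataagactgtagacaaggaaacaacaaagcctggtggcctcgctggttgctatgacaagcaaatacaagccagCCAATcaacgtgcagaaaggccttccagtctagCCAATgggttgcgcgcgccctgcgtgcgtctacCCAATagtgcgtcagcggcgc
Cdc20: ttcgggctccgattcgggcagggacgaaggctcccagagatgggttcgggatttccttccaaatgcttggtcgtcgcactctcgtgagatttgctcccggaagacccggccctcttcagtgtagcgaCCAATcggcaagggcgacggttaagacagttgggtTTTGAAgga
Hmgb2: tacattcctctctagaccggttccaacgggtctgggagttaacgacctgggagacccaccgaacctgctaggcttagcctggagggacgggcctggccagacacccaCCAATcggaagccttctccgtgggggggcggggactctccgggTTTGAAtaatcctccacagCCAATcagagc
Top2a: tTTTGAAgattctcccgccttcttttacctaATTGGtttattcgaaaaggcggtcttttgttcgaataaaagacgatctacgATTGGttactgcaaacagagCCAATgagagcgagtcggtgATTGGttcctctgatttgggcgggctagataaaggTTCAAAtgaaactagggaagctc
Mki67: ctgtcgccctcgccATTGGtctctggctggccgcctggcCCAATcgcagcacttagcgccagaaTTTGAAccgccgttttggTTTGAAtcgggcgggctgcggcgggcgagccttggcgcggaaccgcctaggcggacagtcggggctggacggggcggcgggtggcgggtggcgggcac
Nusap1: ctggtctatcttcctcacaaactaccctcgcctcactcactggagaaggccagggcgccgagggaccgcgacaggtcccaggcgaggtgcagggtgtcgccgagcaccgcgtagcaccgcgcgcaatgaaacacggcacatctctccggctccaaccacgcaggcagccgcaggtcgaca

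These stretches lie at chr10:69352939-69353092 (minus strand) for Cdk1, chr9:70421555-70421734 (minus strand) for Ccnb2, chr4:118437353-118437523 (minus strand) for Cdc20 and chr8:57511663-57511842 (plus strand) for Hmgb2. Those of Top2a, Mki67 and Nusap1 lie at chr11:99024190-99024369 (minus strand), chr7:135716380-135716559 (minus strand) and chr2:119618118-119618297 (plus strand). In the Cdk1 stretch a CHR stands a few bases after a CCAAT box. In the Cdc20 stretch the CHR stands close to the start with a single CCAAT box before it. The Mki67 stretch has 2 CHR matches further upstream, and the Top2a stretch has 2 CHR matches and 4 CCAAT boxes. The stretches do not show every match of the whole windows. Cdk1 has another CHR between the end of its stretch and the RefSeq start. Ccnb2 has another just after its RefSeq start, downstream of its CCAAT boxes, while the CHR in its stretch lies upstream of them.

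Over the whole 300-base windows, searched on both strands, 28 of the 37 member promoters (75.7%) held TTTGAA. The share was 12.5% among 3730 promoters of genes that reached 20 CPM (UMIs of the gene per 1000000 UMIs) in these libraries, and 18.1% among all 27025 promoters of the table. CCAAT stood in 29 of 37 (78.4%), against 39.6% and 37.9%. Both motifs together stood in 24 of 37 (64.9%), against 5.31% and 7.12%. The variant CHR, TTTAAA, stood in 9 of 37 (24.3%), against 8.77% of the promoters of genes of at least 20 CPM. It stood in Birc5, Cenpe, Gtse1 and Tmpo, which lacked TTTGAA, while Cks2, Bub1, Nuf2, Nusap1 and Tacc3 held neither form of the CHR. Other genes of G2 and mitosis, from a separate list of 97 genes, held TTTGAA in 36 of 79 promoters (45.6%). Genes of DNA replication and S phase held it in 5 of 33 (15.2%), but held CCAAT in 24 of 33 (72.7%). Member and replication promoters thus lay far apart in their share with a CHR and close in their share with a CCAAT box. Sequence matches describe letters only, and binding was not measured.

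**Figure D1:**
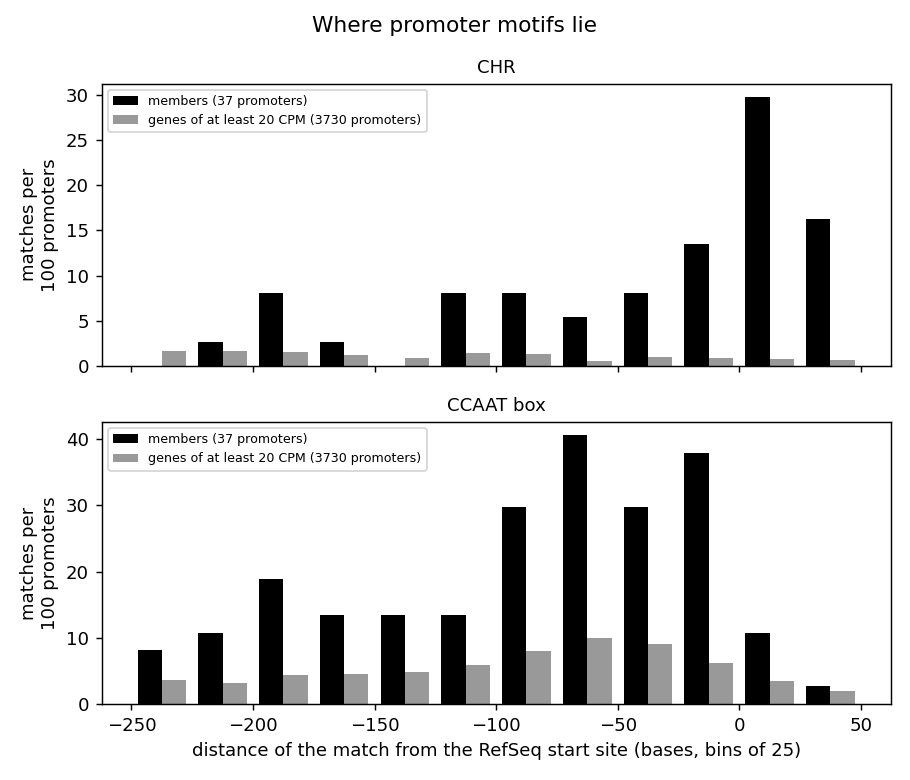
Matches of the CHR (TTTGAA, top) and the CCAAT box (bottom) per 100 promoters, in bins of 25 bases by distance of the match's centre from the RefSeq start, for 37 member promoters (black) and 3730 promoters of genes of at least 20 CPM (grey). The member CHR matches are most frequent from the start to 25 bases after it, at 29.7 per 100 promoters, and the CCAAT matches from -75 to -50, at 40.5 per 100.

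The 2 motifs were most frequent in different bins but overlapped in position, as the plot of motif positions shows. A CHR had its centre between -50 and 25 in 18 of 37 member promoters (48.6%), against 2.65% of promoters of genes of at least 20 CPM. A CCAAT box had its centre between -125 and -25 in 24 of 37 (64.9%), against 24.9%. Between -50 and 25 a CCAAT box was centred in 23 of 37 (62.2%), against 16.1%. Between -125 and -25 a CHR was centred in 10 of 37 (27%), against 4.21%. The bin with the most member CCAAT matches, from -75 to -50, held 15, but the bin from -25 to 0 held 14. The bin with the most member CHR matches lay downstream of both.

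The control library held 2912 cells after filtering, with a median of 17197 UMIs (unique molecular identifiers, 1 per captured molecule), and the knockdown library 6004 cells with a median of 10599. To compare cells at 1 depth, each was thinned at random to 5000 UMIs, which left out 115 control cells (3.95%) and 641 knockdown cells (10.7%) and kept 2797 and 5363. All values below are from thinned cells unless stated, and the control value comes first. Before thinning, Cxxc5 itself stood at 9.38 CPM in the control library, against 1.16 CPM after knockdown. The LSK gate genes Kit and Ly6a (Sca-1) were still detected after culture, at 24.1 and 25.2 CPM for Kit and 10.2 and 7.52 CPM for Ly6a. The erythroid marker Hbb-bt was at 14.6 and 3.43 CPM, the megakaryocyte marker Pf4 at 33.6 and 25.8 CPM, and the T cell marker Cd3e at 0 in both libraries. The libraries shared 26 cell barcodes.

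Together the 42 genes made up 5985 CPM in the control library, against 6116 CPM after knockdown, a log2 ratio of 0.03 (0.02 to 0.04). Of the 42 genes, 27 had a ratio above 0 and 15 below, with a median of 0.05, from -0.24 to 0.32. The median of all 4821 genes that reached 20 CPM in either library was 0.04, and their 5th and 95th percentiles were -0.30 and 0.28. Relative to that median gene, the members' median was 0.00. Of the 35 members that reached 20 CPM, 1 was at least 1.2-fold higher in the knockdown library (Kif2c) and 0 were at least 1.2-fold lower. Kif2c reached 20 CPM only in the knockdown library, where it is high, so its call rests on that minimum. Over all genes 6.16% were that much higher and 6.04% that much lower. The 7 members below 20 CPM were Ttk, Ndc80, Ckap2, Ckap2l, Dlgap5, Gtse1 and Anln. With all UMIs of all kept cells, 0 members were 1.2-fold higher and the median was 0.01, and the sign of the ratio was the same for 35 of the 42 genes. The mitotic gene set as a whole thus differed by far less than 1.2-fold between the libraries.

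**Figure D2:**
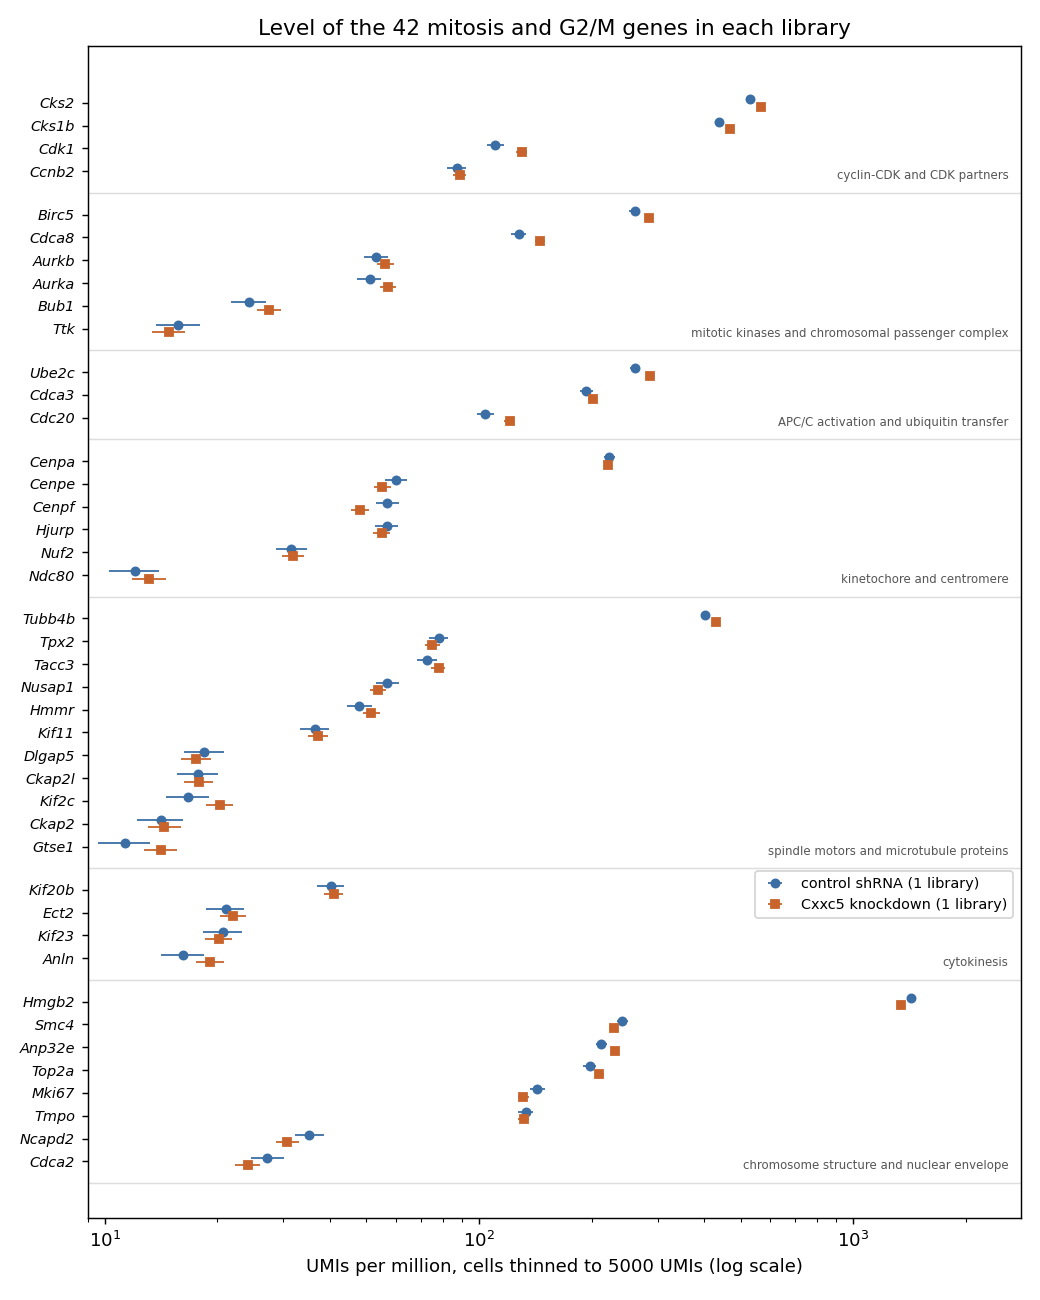
Level of each of the 42 genes in the control library (blue circles) and the Cxxc5 knockdown library (orange squares), in UMIs per 1000000 on a log scale, grouped by role, with 95% counting intervals. Hmgb2 is highest at 1428 and 1342 CPM, and the markers of the 2 libraries lie close together for every gene.

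Levels spanned 2 orders of magnitude, as the plot of levels by role shows. The lowest was Gtse1 at 11.3 CPM in the control and the highest Hmgb2 at 1428 CPM, and 16 members were at 100 CPM or more in each library. These are molecules per 1000000, read from the 3' end and not scaled by gene length. Hmgb2, Tubb4b, Cks1b and Cks2 have close relatives in the genome, so their counts are uncertain where reads could not be assigned.

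Cyclin-dependent kinase 1 and its partners drive entry into mitosis. The 4 genes of this group summed to 1166 and 1254 CPM (log2 0.11, 0.08 to 0.13), and all 4 ratios were above 0. Cdk1 (chromosome 10, 69335146 to 69352938, minus strand, GRCm38), the kinase itself, had 110.6 CPM, against 129.9 after knockdown (0.23, 0.14 to 0.32). With all UMIs its ratio was 0.08. Ccnb2 (chromosome 9, 70407692 to 70421547), a B-type cyclin, had 87.1 and 88.7 CPM (0.03, -0.07 to 0.13), a difference within counting error. Cks2 and Cks1b, small subunits that help the kinase bind its substrates, were the most abundant of the group. Cks2 had 531 and 566 CPM (0.09) and Cks1b 437 and 469 CPM (0.10).

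The mitotic kinases and the chromosomal passenger complex, which corrects faulty chromosome attachment, summed to 533 and 587 CPM (0.14, 0.10 to 0.18). Birc5 (survivin), a passenger subunit, had 261 and 286 CPM (0.13). Cdca8 (borealin), its partner, had 128 and 146 CPM (0.19, 0.11 to 0.27). Aurkb (chromosome 11, 69045647 to 69051664), the kinase of the complex, had 53.1 and 56.2 CPM (0.08, -0.05 to 0.21). Aurka (chromosome 2, 172356190 to 172370535), the centrosome and spindle pole kinase, had 51.0 and 57.1 CPM (0.16, 0.04 to 0.29). Under other settings the Aurka ratio ran from 0.12, relative to the median gene, to 0.38 at 8000 UMIs per cell. It was past 1.2-fold at 8000 UMIs, at 3000 UMIs (0.28) and without likely doublets (0.28). The passenger subunits Birc5 and Cdca8 thus exceeded their kinase in molecules in both libraries. The checkpoint kinases were low, Bub1 at 24.2 and 27.5 CPM (0.18, -0.01 to 0.37) and Ttk at 15.7 and 14.8 CPM (-0.09, -0.33 to 0.16).

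The 3 genes grouped under APC/C activation and ubiquitin transfer summed to 559 and 609 CPM (0.12, 0.09 to 0.16), with all 3 ratios above 0. Ube2c, the ubiquitin-conjugating enzyme of the APC/C, had 261 and 287 CPM (0.14, 0.08 to 0.19), but 0.04 with all UMIs. Cdca3 had 194 and 202 CPM (0.06). Cdc20 (chromosome 4, 118432901 to 118437352), the activator of the APC/C in early mitosis, had 104 and 121 CPM (0.22, 0.13 to 0.31), and 0.11 with all UMIs.

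Kinetochore and centromere genes, which tie chromosomes to microtubules, summed to 440.1 and 424 CPM (-0.05, -0.10 to -0.01), and 4 of the 6 ratios were below 0. Cenpf (chromosome 1, 189640606 to 189688086), a large protein of the outer kinetochore and nuclear envelope, had the lowest ratio of the 42 genes, with 56.9 CPM, against 48.0 after knockdown (-0.24, -0.37 to -0.12). With all UMIs it was -0.21. Cenpe, a kinetochore motor, had 59.99 and 55.2 CPM (-0.12, -0.24 to 0.00). Cenpa, the centromeric histone H3 variant and the most abundant of the group, had 223 and 221 CPM (-0.02, -0.08 to 0.05). Hjurp, the chaperone that loads Cenpa, had 56.7 and 55.0 CPM (-0.05). The Ndc80 complex subunits Nuf2 (31.5 and 31.9 CPM) and Ndc80 (12.0 and 13.2 CPM) also differed within counting error.

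Spindle motors and microtubule proteins, the largest group with 11 genes, summed to 772 and 811 CPM (0.07, 0.04 to 0.11), and 8 ratios were above 0. Tubb4b, a beta-tubulin, supplied more molecules than the other 10 genes together, at 401 and 431 CPM (0.10). Tpx2, which recruits Aurora A to the spindle, had 78.0 and 75.1 CPM (-0.06, -0.16 to 0.05). Gtse1, a microtubule-binding protein, had the highest ratio of all members on low counts, 11.3 and 14.1 CPM (0.32, 0.05 to 0.60), and 0.06 with all UMIs. Kif2c, a kinesin that takes microtubules apart, had 16.7 and 20.3 CPM (0.28, 0.06 to 0.51), and 0.11 with all UMIs. The other ratios of the group were those of Tacc3 (0.10), Hmmr (0.11), Kif11 (0.03), Ckap2 (0.04), Ckap2l (0.01), Dlgap5 (-0.07) and Nusap1 (-0.08), each with a counting interval that includes 0.

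The 4 genes of cytokinesis, the final cut between daughter cells, were low and summed to 98.0 and 102 CPM (0.06, -0.03 to 0.16). Kif20b had 40.2 and 40.9 CPM (0.03) and Ect2, which activates RhoA at the cleavage site, 21.02 and 22.04 CPM (0.07). Anln (anillin), a scaffold of the contractile ring, had 16.2 and 19.1 CPM (0.24, 0.02 to 0.48), and 0.08 with all UMIs. Kif23, a motor of the central spindle, had 20.7 and 20.1 CPM (-0.04).

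Chromosome structure and nuclear envelope genes had the highest sum of the 7 groups, 2418 and 2330 CPM (-0.05, -0.07 to -0.04), and 6 of 8 ratios were below 0. Hmgb2 (chromosome 8, 57511907 to 57515999), a DNA-bending chromatin protein, alone gave 23.9% and 21.9% of all member UMIs, at 1428 and 1342 CPM (-0.09, -0.11 to -0.06). Without it the other 41 genes summed to 4557 and 4774 CPM (0.07, 0.05 to 0.08). Smc4, a condensin subunit, had 242 and 229 CPM (-0.08, -0.14 to -0.02). Ncapd2, another condensin subunit, had 35.2 and 30.8 CPM (-0.19, -0.36 to -0.03). Mki67 (chromosome 7, 135689784 to 135716361), which coats mitotic chromosomes and is the usual marker of dividing cells, had 143 and 131 CPM (-0.13, -0.21 to -0.05). Top2a (chromosome 11, 98992943 to 99024189), the topoisomerase that untangles sister chromosomes and the other usual marker, had 197 and 210 CPM (0.09, 0.02 to 0.15). The 2 standard proliferation markers thus had ratios of opposite sign, both under 1.2-fold. Anp32e, a histone chaperone, had 212 and 231 CPM (0.12), Tmpo 134 and 132 CPM (-0.02), and Cdca2, which recruits a phosphatase to chromatin, 27.2 and 24.1 CPM (-0.17, -0.36 to 0.02) and -0.00 with all UMIs.

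**Figure D3:**
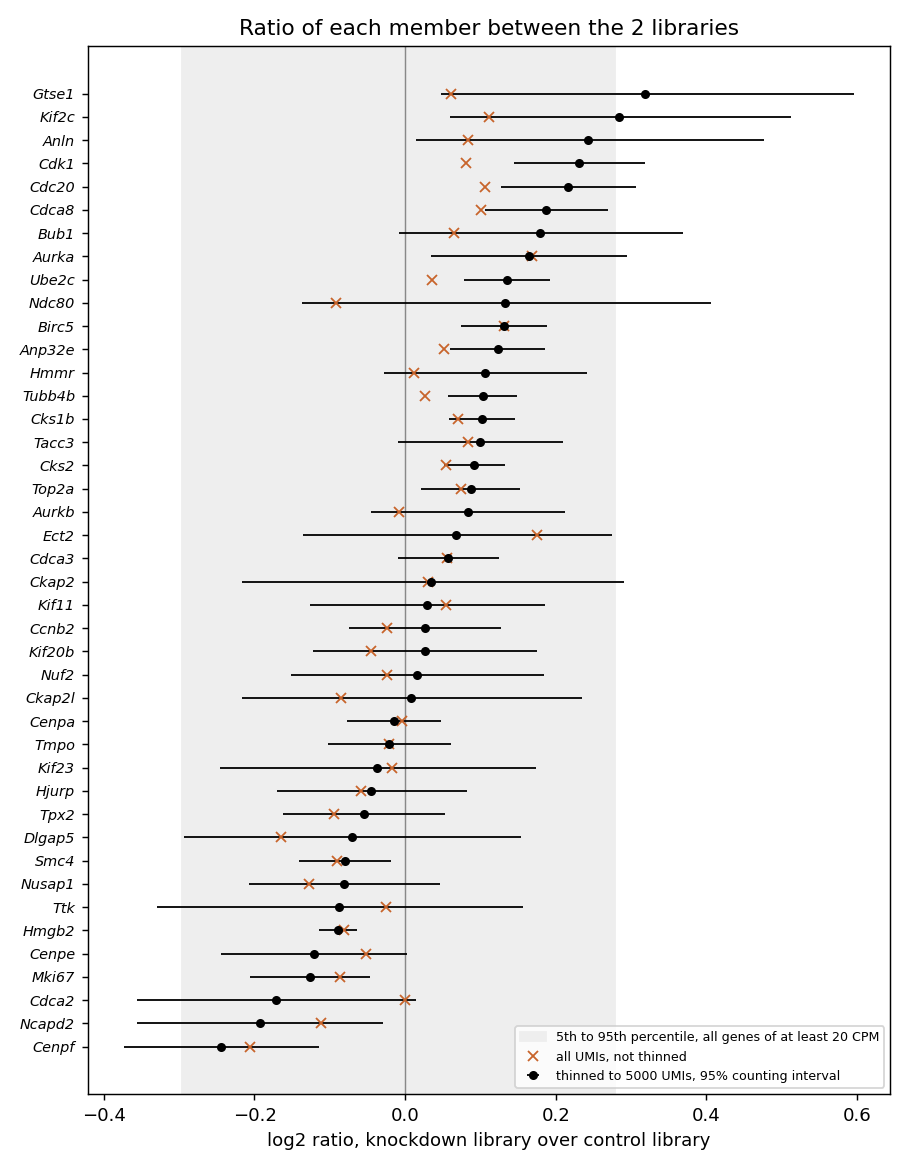
Log2 ratio of knockdown over control for each of the 42 genes, ordered by ratio, in cells thinned to 5000 UMIs (black, with 95% counting interval) and with all UMIs (orange crosses). The grey band from -0.30 to 0.28 is the 5th to 95th percentile of all genes of at least 20 CPM, and 40 of the 42 black points lie inside it, all but Kif2c and Gtse1.

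In each cell the 42 genes were counted together. A control cell held a mean of 29.9 member UMIs among its 5000 (SD between cells 12.3, median 29, 5th to 95th percentile 10 to 50) and a knockdown cell 30.6 (SD 10.5, median 30, 15 to 49). The centres nearly coincided, and the control cells spread further mainly on the low side. Cells with fewer than 5 member UMIs, under 0.1% of the cell, made up 59 of 2797 control cells, 2.11% (1.61 to 2.71%, Clopper-Pearson), and 30 of 5363 knockdown cells, 0.559% (0.378 to 0.798%). At least 20 member UMIs were found in 82.7% and 87.4% of cells, and at least 50 in 5.51% and 4.48%. The share differed with depth. Among cells under 5000 UMIs, 13.9% of control and 10.6% of knockdown cells had under 0.1% member UMIs. With all UMIs of all kept cells the shares were 2.64% (2.09 to 3.29%) and 1.75% (1.43 to 2.11%), closer to each other than after thinning. At 2000 UMIs per cell, where 0 cells were left out, they were 3.09% and 1.58%.

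Cells were then sorted into classes by summed UMIs of marker genes that are not members. Late neutrophil-like cells (Ltf, Camp, Ngp and others) had the most member UMIs, 7081 and 7477 CPM. Early neutrophil-like cells (S100a8, S100a9, Fcnb, Stfa1) followed with 6336 and 6331 CPM. Dendritic-like cells (Cd74, H2-Aa and others) had the least, 4085 and 4618 CPM, over 54 and 45 cells, and 24.1% and 13.3% of them had fewer than 5 member UMIs. The other classes were between 5509 and 6287 CPM, and their order differed between the libraries. Late neutrophil-like cells were highest and dendritic-like cells lowest in both libraries. Early neutrophil-like and monocyte-like knockdown cells, at 6331 and 6287 CPM, did not differ beyond counting error, and without Hmgb2 they had 4869 and 4875 CPM.

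**Figure D4:**
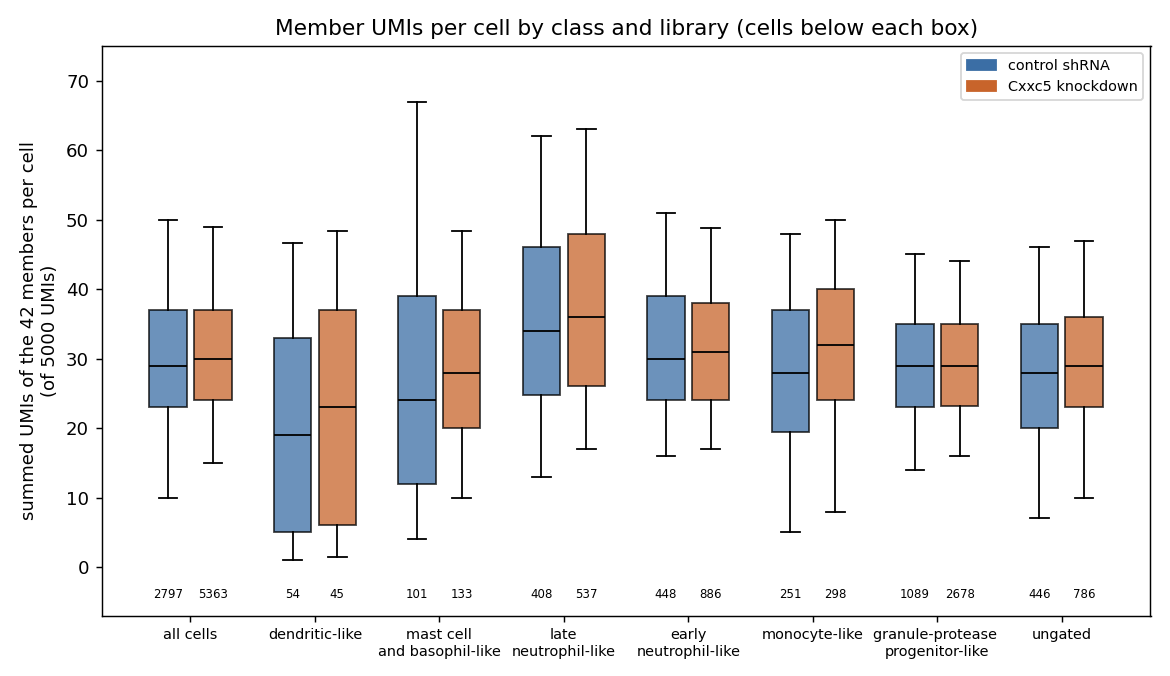
Summed UMIs of the 42 genes per cell, of 5000 UMIs, by class, for the control (blue) and knockdown (orange) library, with the number of cells below each box. Boxes show the median and quartiles and whiskers the 5th and 95th percentiles. Medians lie between 19 and 36, lowest in dendritic-like and highest in late neutrophil-like cells.

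Hmgb2 made up much of the high sum in late neutrophil-like cells. It stood at 2469 and 2392 CPM there, against 1588 and 1462 CPM in early neutrophil-like and 1138 and 1153 CPM in granule-protease progenitor-like cells (Mpo, Elane, Prtn3 and others). Without Hmgb2 the late class summed to 4612 CPM in the control, below the 4748 CPM of early neutrophil-like and the 4698 CPM of progenitor-like cells. In the knockdown library it summed to 5085 CPM and stayed above them, at 4869 and 4741 CPM. Within the late class Hmgb2 went up with the maturation markers. Control cells with marker UMIs from 20, from 100 and from 200 (3 bins without overlap) held means of 10.3, 13.5 and 14.97 Hmgb2 UMIs, and knockdown cells 10.5, 11.7 and 14.4. Over the same bins the summed S phase genes went from 16.6 to 14.8 and 11.95 in the control cells and from 18 to 17.02 and 13.04 in the knockdown cells. Hmgb2 and the replication genes thus ran in opposite directions along this marker axis in both libraries. The other 41 members together held means of 23.7, 21.96 and 22.84 UMIs in control cells and 24.7, 24.8 and 26.9 in knockdown cells. They changed little over the bins in the control and were highest in the last bin in the knockdown library.

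Within classes the libraries were compared for members of at least 50 CPM in a library and 100 UMIs over both, with 1.2-fold as the limit. In monocyte-like cells (Csf1r, Ccr2, Irf8 and others, 251 and 298 cells) the 42 genes summed to 5641 and 6287 CPM (log2 0.16, 0.11 to 0.20). Of 24 members 11 were higher and 0 lower, where 12.6% of all genes were higher and 11.7% lower. The members' median was 0.26 against 0.02 for all genes. Of 32 genes of the separate G2/M list 6 were higher and 0 lower, with a median of 0.08. Of 24 S phase genes 4 were higher and 3 lower, with a median of 0.002. Cdc20 had 79.7 and 110.7 CPM (0.48, 0.11 to 0.85), Cenpf 35.9 and 51.7 CPM (0.53, -0.02 to 1.09, at 50 CPM only in the knockdown library), and Ube2c 191 and 254 CPM (0.41, 0.17 to 0.65). Ccnb2 had 57.4 and 77.2 CPM (0.43, -0.01 to 0.87). At the low end were Tacc3, with 74.9 and 63.8 CPM (-0.23, -0.66 to 0.20), and Cks1b, with 438 and 436 CPM (-0.01). The count depended on how the class was drawn, with 3 higher members when likely doublets were removed, 3 with gate limits at 50% of those used, 1 at 2000 UMIs per cell and 20 at 8000. In this class 75 of 251 and 116 of 298 cells lay within 25% above the limit, and the progenitor markers had medians of 30 and 38 UMIs. The part of these in the result was not tested.

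In late neutrophil-like cells (408 and 537 cells) the sum was 7081 and 7477 CPM (0.08, 0.05 to 0.11). Without Hmgb2 it was 4612 and 5085 CPM (0.14, 0.10 to 0.18). The means per cell were 35.4 and 37.4 member UMIs, with an SD between cells of 14.95 and 14.7. These intervals leave out that spread between cells. Of 25 members 6 were higher and 1 lower, against 23% and 9.37% of all genes, so the members' counts were near the background. Among members that passed these level limits, Aurka had the largest ratio in any of the 6 classes, with 40.7 CPM, against 76.7 after knockdown (0.92, 0.54 to 1.30). It reached the 50 CPM minimum only in the knockdown library, where it is high, so the minimum favours this rank. Its ratio stayed between 0.60 and 1.09 under the 7 other settings. Cdca8 had 116 and 174 CPM (0.59, 0.36 to 0.82) and stayed between 0.48 and 0.61. The lowest were Hjurp, with 62.8 and 49.5 CPM (-0.34, -0.70 to 0.02, at 50 CPM only in the control library), and Tpx2, with 74.0 and 64.1 CPM (-0.21). Early neutrophil markers had medians of 635 and 557 UMIs per cell in this class and progenitor markers 71.5 and 92, and their part was not tested. At least 50 member UMIs were found in 18.6% and 22.7% of these cells.

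In early neutrophil-like cells (448 and 886 cells) the sums were equal within counting error, 6336 and 6331 CPM. Of 26 members 1 was higher and 2 were lower, against 8.76% and 7.85% of all genes. Birc5 was the higher one, with 257 and 312 CPM (0.28, 0.14 to 0.42), followed by Cdca8 with 129.9 and 149.7 CPM (0.20). Cenpf had 50.9 and 36.3 CPM (-0.49, -0.84 to -0.13), but -0.09 at 3000 and -0.03 at 8000 UMIs per cell, and Cenpe 57.1 and 46.7 CPM (-0.29, -0.62 to 0.04). Both reached 50 CPM only in the control library, where they are high, so the count of lower members rests on that minimum.

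In granule-protease progenitor-like cells, the largest class (1089 and 2678 cells), the sums were 5836 and 5894 CPM (0.01, -0.01 to 0.03). Of 24 members 0 were higher and 1 was lower, against 2.32% and 4.18% of all genes. The lower one was Cenpf, with 61.3 and 45.1 CPM (-0.44, -0.64 to -0.25), and -0.10 at 2000 UMIs per cell. It reached 50 CPM only in the control library, where it is high. Next lowest was Tpx2, with 85.8 and 76.2 CPM (-0.17, -0.33 to -0.01). The highest were Cdk1, with 109 and 129.6 CPM (0.25, 0.11 to 0.38, but 0.06 with another random thinning), and Aurkb, with 50.3 and 56.4 CPM (0.16, -0.04 to 0.37).

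Mast cell and basophil-like cells (Cpa3, Gata2, Prss34 and others, 101 and 133 cells) had close sums, 5578 and 5783 CPM (0.05, -0.02 to 0.12), but different spreads. The SD between cells was 21.3 and 13.01 UMIs. Fewer than 5 member UMIs were found in 8.91% (4.16 to 16.2%) of control cells and in 0 of 133 after knockdown, which allows a share of up to 2.26% (3 cells of 133; the Clopper-Pearson upper bound is 2.74%). At least 50 were found in 12.9% (7.04 to 21%) and 4.51% (1.67 to 9.56%). The emptiest cells were thus more frequent in the control library beyond counting error, while the intervals for the fullest cells overlap. In this class the mast cell and basophil markers had medians of 12 and 9 UMIs and the progenitor markers 9 and 22, and their part was not tested. Of 17 members 2 were higher and 2 lower, against 29.1% and 13.5% of all genes. The higher ones were Anp32e, with 164 and 227 CPM (0.47, 0.07 to 0.87), and Smc4, with 155 and 205 CPM (0.41, -0.01 to 0.83). The lower ones were Cdc20, with 125 and 94.7 CPM (-0.40, -0.92 to 0.13), and Tmpo, with 149 and 120.3 CPM (-0.30, -0.78 to 0.17).

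Ungated cells (446 and 786) had 5509 and 5779 CPM (0.07, 0.04 to 0.10). Of 25 members 4 were higher and 0 lower, against 6.54% and 7.4% of all genes. Top2a had 214 and 268 CPM (0.32, 0.17 to 0.48) and Cdk1 77.6 and 97.0 CPM (0.32, 0.06 to 0.59). Mki67 had 143 and 125 CPM (-0.19, -0.39 to 0.02) and Hjurp 59.6 and 54.5 CPM (-0.13). Across the 6 classes compared, Cdk1, Cdca8 and Ube2c had a ratio above 0 in each, from 0.07 to 0.36, 0.03 to 0.59 and 0.03 to 0.41. The lowest ratio of each was within counting error. These were Cdk1 in mast cell and basophil-like (-0.51 to 0.65), Cdca8 in progenitor-like (-0.10 to 0.15) and Ube2c in early neutrophil-like cells (-0.10 to 0.165). Mki67 was above 0 in 2 and below in 4, and Cenpf above in 2 and below in 4, so neither had 1 direction.

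To place the members within the cycle, cells were binned by genes outside the list. S-high cells had at least 20 UMIs of 46 S phase genes and at most 1 of 12 mitotic control genes (Ccnb1, Plk1, Foxm1 and others). Mitotic-high cells had at least 3 mitotic control and under 15 S phase UMIs, and a bin low in both had at most 1 and under 10. The bins held 330, 490 and 173 control and 632, 1024 and 163 knockdown cells, in this order. Mean member UMIs were 24.6 in S-high and 39.7 in mitotic-high control cells, and 24.3 and 38.1 in knockdown cells. In the bin low in both they were 16.1 (median 8) and 23.5 (median 26). The libraries lay close in the first 2 bins and apart in the last. The last bin had median depths of 10905 and 8234 UMIs, the lowest of the 3 bins in each library, and its make-up was not tested.

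**Figure D5:**
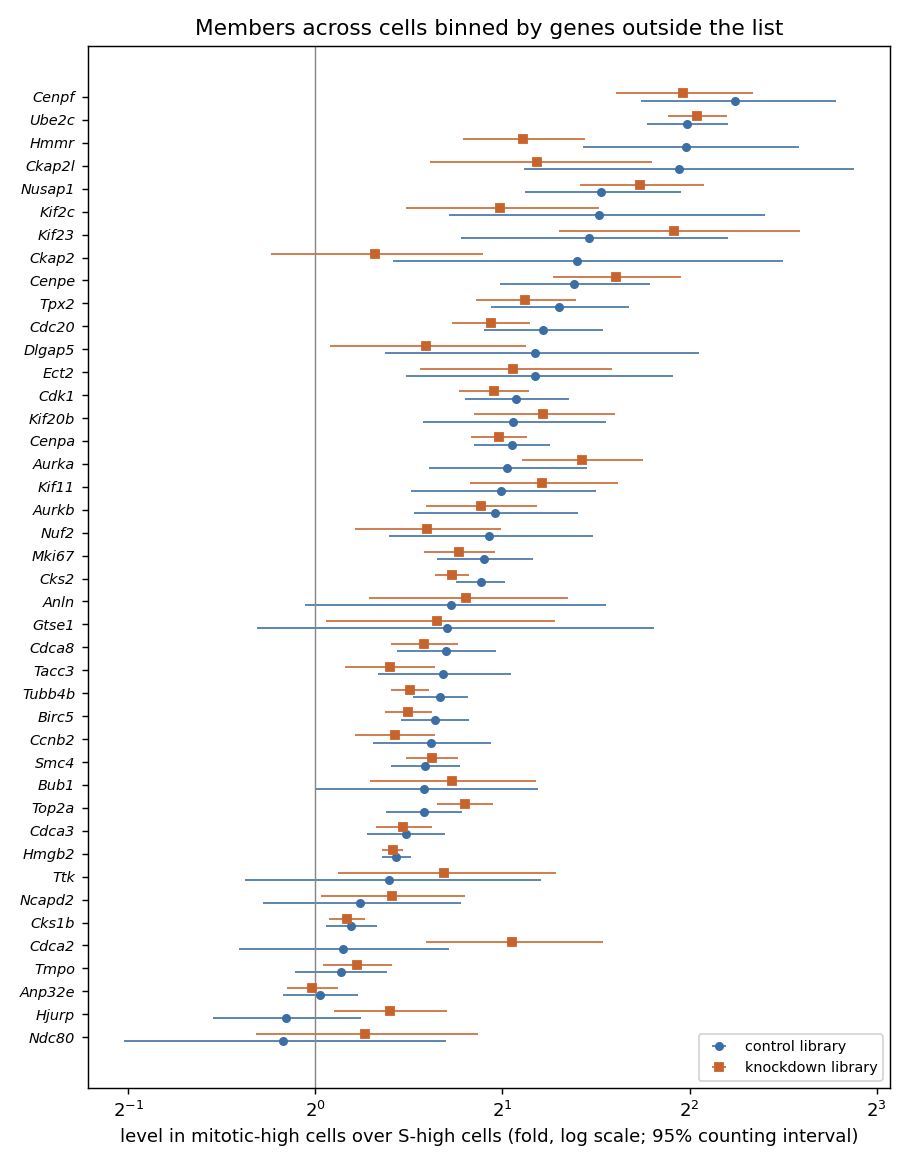
Fold of each member's level in mitotic-high over S-high cells on a log scale with 95% counting intervals, for the control (blue circles) and knockdown (orange squares) library, ordered by the control value. Values run from 0.888 (Ndc80) to 4.73 (Cenpf) in the control, and Cenpf and Ube2c are among the highest in both libraries.

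The members differed widely in how far they followed this axis. The level in mitotic-high over S-high cells was above 1 for 40 control and 41 knockdown values of the 42 genes, and at least 2 for 17 and 13, of which 11 were the same genes. The median fold was 1.86 and 1.68. Cenpf went from 22.4 to 106 CPM in the control (4.73-fold, 3.35 to 6.87) and from 23.4 to 91.4 CPM in the knockdown library (3.90-fold, 3.05 to 5.06). Ube2c went from 125 to 494 CPM (3.96-fold, 3.41 to 4.61) and from 124 to 509 CPM (4.12-fold, 3.70 to 4.59). Nusap1, which has neither motif in its window, was 2.88-fold and 3.33-fold higher, and Cenpe, which has only the variant CHR, 2.60-fold and 3.04-fold. Hmmr, a spindle and hyaluronan-binding protein, was 3.95-fold (2.69 to 5.99) and 2.16-fold (1.73 to 2.71) higher. Its intervals in the 2 libraries overlap only between 2.69 and 2.71, and its level in S-high cells was 18.8 and 32.6 CPM. Cdk1 was 2.11-fold and 1.94-fold higher, Cdc20 2.32-fold and 1.92-fold, Mki67 1.87-fold and 1.71-fold, and Top2a 1.495-fold and 1.74-fold.

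At the other end were genes at much the same level in both bins. Anp32e was 1.02-fold and 0.989-fold, Tmpo 1.10-fold and 1.17-fold, and Cks1b 1.14-fold and 1.12-fold. Hjurp was 0.898-fold (0.684 to 1.18) in the control and 1.32-fold (1.07 to 1.63) in the knockdown library. Hmgb2, the most abundant member, was 1.35-fold and 1.33-fold higher. Summing the 42 genes therefore weights a gene that follows mitosis weakly more than those that follow it most, such as Cenpf and Ube2c.

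Across cells, each member was correlated with the sum of the other 41, on log2 of thinned UMIs plus 1. Pearson's r ran from 0.05 to 0.44 in the control (median 0.18) and from 0.03 to 0.45 in the knockdown library (median 0.14). Ube2c was highest in both. Of 4481 genes outside the list that were compared, the 10 most like the member sum by the lower of both libraries' r were Ube2s (0.45 and 0.39), Ccnb1 (0.29 and 0.28), Tuba1b (0.38 and 0.25), Arl6ip1 (0.26 and 0.24), Plk1 (0.22 and 0.22), Calm2 (0.22 and 0.22), Ms4a3 (0.32 and 0.22), Tuba4a (0.34 and 0.21), H2afz (0.43 and 0.21) and Hn1 (0.24 and 0.20). Ube2s encodes the second ubiquitin-conjugating enzyme of the APC/C, Ccnb1 cyclin B1 and Plk1 polo-like kinase 1. The most negative were ribosomal protein genes, such as Rpl17 (-0.35 and -0.29). These correlations are over 2797 and 5363 cells of 1 library each and are descriptions only.

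The other genes of the pathway came from the separate list of 97. Of 60 that reached 20 CPM, 5 were at least 1.2-fold higher and 1 lower, against 6.16% and 6.04% of all genes. The highest were Bora, which helps activate polo-like kinase 1, with 14.9 and 20.7 CPM (0.47, 0.24 to 0.71, at 20 CPM only in the knockdown library), Ccnb1, with 78.8 and 98.3 CPM (0.32, 0.22 to 0.42), and Plk1, with 46.0 and 56.1 CPM (0.29, 0.15 to 0.42). Mybl2 (0.27) and Kif22 (0.26) were the others. Cyclin B1 thus differed more between the libraries than cyclin B2, at 0.32 against 0.03. The lowest were Mis12, a kinetochore subunit, with 21.9 and 17.8 CPM (-0.30, -0.51 to -0.08, at 20 CPM only in the control library), Cdkn3, with 40.4 and 33.9 CPM (-0.26, -0.41 to -0.10), and Ncapd3, a condensin subunit like Ncapd2, with 25.8 and 21.7 CPM (-0.25, -0.44 to -0.05). The median of the 60 was 0.03. Of 43 S phase genes of at least 20 CPM, 1 was higher and 0 lower, against the same shares of all genes. Their median was 0.05.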

How the data were processed

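UMI counts per gene and cell barcode were deposited by the authors, who made them from 10x Genomics 3' version 2 libraries per the labels' protocols, with the tool Cell Ranger, version 2.1.1, and the build mm10, both per the submitters' processing notes. Which annotation was used is not given in the sources used here. Gene positions came from GENCODE M21 (GRCm38, the assembly of mm10), matched by Ensembl identifier.

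Cells with at least 500 genes and at most 10% mitochondrial UMIs were kept, 2912 of 2925 and 6004 of 6015. Scrublet, run in scanpy 1.11.5, called 1 and 6 cells (0.0343% and 0.0999%), too few to rely on, so doublets were kept. An alternative removed the 68 and 288 cells with the highest scores (0.8% per 1000 cells). Each cell was thinned to 5000 UMIs without replacement (seed 58), UMIs were summed over cells, and sums were given as CPM. Random thinning adds noise that the intervals hold only in part. Intervals at 95% are exact Poisson for levels, exact binomial for ratios and Clopper-Pearson for shares. Those for levels and ratios take each UMI as independent. They leave out the spread between cells, so they are too narrow for sums of members. With 1 library per group no p-value was computed. A gene was counted as higher or lower at 1.2-fold. The arithmetic was tested on simulated data.

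Classes were limits on summed marker UMIs of 5000, applied in order: dendritic-like 8, mast cell and basophil-like 6, late neutrophil-like 20, early neutrophil-like 32, monocyte-like 4 and granule-protease progenitor-like 50. The limits were set on the pooled marker distributions after the data were seen, without members or library. Classes with 50 cells in each library were compared. The 12 mitotic control genes were taken from the other G2/M list after seeing that abundant histone and tubulin genes dominated it. The members and gene lists were chosen with earlier results of these data known. Values were given in full for Mki67, Top2a, Cdk1, Ccnb2, Cdc20, Aurka and Aurkb, the 4 highest and 4 lowest ratios, the 2 highest and 2 lowest in each class, the 2 most abundant members of each role, the 3 highest and 3 lowest of the other G2/M genes and the 10 genes most like the member sum. Other members were named to account for the list. Alternatives were other thinning depths, doublet removal, CPM minimum, centring, class shares, gate limits and all barcodes. Thinning to 2000, another seed and leaving out Hmgb2 were added after seeing the data.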

Additional observations from a re-analysis of the deposited data

How the results depend on the processing

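Of 116 alternative values for summary results, 73 stayed within counting error or, for counts, within 1.5 times, and 43 did not. For the median ratio of the 42 genes the range used was -0.09 to 0.17, the median ends of the single-gene intervals. That range is wide for a median, so all its alternatives being within it says little. Of 125 values for single genes, 13 moved beyond counting error, among them Cenpf (-0.09) and Aurka (0.38) over all cells at 8000 UMIs per cell. Cdk1 over all cells (0.23) moved to 0.14 at 3000 UMIs, 0.09 at 2000 and 0.08 without thinning. In progenitor-like cells Cdk1 (0.25) moved to 0.10 at 3000 UMIs, 0.02 at 2000 and 0.06 with another seed. Single-gene ratios changed sign for Ccnb2 (0.03), at -0.02 without thinning and -0.02 relative to the median gene, and for Aurkb (0.08), at -0.01 without thinning and -0.005 without likely doublets. The median log2 ratio of the 42 genes stayed between 0.00 and 0.09. The count of members at least 1.2-fold higher, 1, became 2 at 3000 UMIs per cell and with no CPM minimum, and 0 at 2000 UMIs, with another thinning seed, without thinning, relative to the median gene and at a minimum of 50 CPM. The count lower, 0, became 2 at 2000 UMIs and 1 with another seed, without likely doublets and relative to the median gene. The share of cells under 0.1% member UMIs (2.11% and 0.559%) was 1.40% in the control at 8000 UMIs and 3.09% at 2000, and in the knockdown library 1.03% at 3000, 0.0891% at 8000 and 1.58% at 2000. The share under 0.4% (17.3% and 12.6%) was 20.8% and 15.7% at 3000 UMIs, 14.8% and 7.80% at 8000 and 23.4% and 19.4% at 2000. The order of the libraries was the same at each depth, while depth set the values.

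For the member sum by class, the monocyte-like ratio (0.16) was 0.34 at 8000 UMIs, 0.083 at 2000, 0.087 without likely doublets, 0.073 and 0.46 with gate limits halved and doubled, and 0.20 without Hmgb2. The 11 members higher there became 20 at 8000 UMIs, 1 at 2000, 3 without likely doublets and 3 with halved limits. The late neutrophil-like ratio (0.08) was 0.15 at 8000 UMIs and 0.14 without Hmgb2, and the 6 members higher became 12 at 8000 UMIs. The mast cell and basophil-like ratio (0.05) was -0.085 at 3000 UMIs, -0.034 at 8000, and 0.13 and -0.086 with limits halved and doubled, so its sign is not fixed. The early neutrophil-like ratio (-0.001) was 0.048 at 3000 UMIs, 0.034 without likely doublets and 0.036 without Hmgb2, and the ungated ratio (0.07) was 0.19 with halved limits. The cause of these shifts was not tested. No paired analysis was possible because each group had 1 library, and for the same reason no replicate could be left out.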

Other observations

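Few genes that restrain division were abundant. Of 20 inhibitors and DREAM subunits, 5 reached 20 CPM, of which 0 were at least 1.2-fold higher and 2 lower in the knockdown library. Btg1, an antiproliferative gene of quiescent blood cells, had 53.9 and 41.4 CPM (log2 -0.38, -0.52 to -0.25), and Cdkn1a, the p53-induced inhibitor of cyclin-dependent kinases, 34.3 and 28.1 CPM (-0.29, -0.45 to -0.12). Over all genes of at least 20 CPM, 6.04% were that much lower.

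Among the 42 mitosis and G2/M genes the log2 ratio went with transcript length. Pearson's r with the length of the longest annotated transcript was -0.44 across the 42 genes and 0.00 across 4817 genes of at least 20 CPM, and genes are not independent replicates. The 21 shortest (up to 3421 bases) had a median ratio of 0.10, with 18 above 0, and the 21 longest (from 3526 bases) a median of -0.02, with 9 above 0. Cks2 and Cdc20 are among the short genes and Cenpf and Mki67 among the long ones. Other genes went against the trend, such as the long Cdk1 (0.23) and Anln (0.24) and the short Hmgb2 (-0.09).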
